A study of Mus musculus with 8 samples.

Results

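The mitosis genes were 51 genes of chromosome segregation and cell division, grouped by role into cyclins and activators of Cdk1, mitotic kinases with the chromosomal passenger complex, the spindle checkpoint, the ubiquitin ligase with securin and separase, the centromere and kinetochore, kinesins, spindle assembly with cytokinesis, and chromosome structure. They were chosen by name, with earlier results of these data known. Each was read on every probe set whose platform annotation gave it as the single gene. Of the 51 genes, 50 had such a probe set, and Ccnb1, the gene of cyclin B1, was not analysed here for want of one. The 50 genes were among 18193 genes named alone by a probe set on the array, and they had 116 of its 45101 probe sets. Of these 116, 94 passed the filter on low values and were tested, at least 1 for each of the 50 genes, and 22 lay below it.

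The genital tubercle, the embryonic outgrowth that becomes the penis or the clitoris, was compared between the sexes. Males and females were FVB/N embryos at embryonic day 14 (Theiler stage 22), with 4 samples of each sex, no treatment named in the labels, and 1 Affymetrix MOE430 array per sample. The tubercle region was microdissected from single, unpooled samples, and its RNA was amplified in 2 rounds before hybridisation. The labels do not say which samples shared a litter or an amplification, so each p-value reflects how far these 8 arrays spread, part of which may be technical. Levels are the deposited linear intensities, given as mean ± SD with n = 4 for each sex, and every difference is the male minus the female mean of log2(intensity + 16), a scale that understates the change of dim probe sets. Beside a difference stand its SE, the standard error from limma, and its Benjamini-Hochberg adjusted p over all 22519 tested probe sets, and 0.05 was the threshold for a call.

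Of the 22519 tested probe sets, 40.5% were called, with 21.9% lower and 18.7% higher in males. The Y-linked gene Eif2s3y read 4109 to 6136 on male arrays and 31.1 to 70.8 on female arrays. Xist, the RNA that coats the inactive X chromosome, read 344, 230, 16036 and 620 on male arrays 1 to 4, against 32465 to 35816 on female arrays, so male array 3 stood apart from the other males on it. Without male array 3, 40 member probe sets were lower and 9 higher, against 18.7% and 14.9% of all tested probe sets. The median intensity was 229 ± 20.1 on male arrays and 195 ± 9.7 on female arrays, and the 3' probe set of the 18S control was 26742 ± 5680 on male arrays and 13215 ± 4445 on female arrays. Both gave p = 0.0286 by a two-sided exact permutation test, the smallest p that 70 arrangements allow, and 0.0857 after adjustment over 9 array measures. With the 18S level as a covariate, 2 member probe sets were lower and 0 higher at an adjusted limma p under 0.05 (0.724% and 1.11% of all). Of the 45 lower and 10 higher calls, 1 and 0 were called again, while all kept their sign. The lowest male array on this 18S probe set read 21050 and the highest female array 18926. The level of this probe set thus cannot be told apart from sex on these arrays, and its part in the result was not tested. The 5' probe set of the 18S control overlapped between the sexes, at 14607 ± 6422 on male arrays and 9104 ± 7505 on female arrays. By the same permutation test it gave p = 0.2, and 0.45 after adjustment over the 9 array measures.

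Mitosis begins when Cdk1, bound to cyclin B and freed of inhibitory phosphates by Cdc25 phosphatases, phosphorylates proteins of the chromosomes and the spindle. Kinetochores attach the chromosomes to microtubules while the checkpoint holds back the anaphase-promoting complex, a ubiquitin ligase that, once active with Cdc20, has securin and cyclin B destroyed so that separase can part the sister chromatids. Most of these genes are transcribed in the later part of the cycle by the MuvB core with B-Myb and FoxM1, through the cell cycle homology region (CHR) of their promoters, often with boxes bound by NF-Y, and they are held silent in resting cells by the DREAM complex at the same element. In an outgrowing embryonic tissue their transcripts mark dividing cells. In whole tissue, fewer dividing cells and less RNA per dividing cell cannot be told apart.

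The promoters are shown because many of these genes hold the CHR element. RefSeq windows (GRCm38.p6) of 250 bases before and 50 after the annotated start were at hand for 42 of the 51 members, 47 windows in all; the members without one were Aurkb, Ccna2, Cdc25c, Foxm1, Incenp, Kif20a, Smc4, Spc24 and Tpx2. Searched on both strands, the CHR core TTTGAA lay in 33 of 47 member windows (70.2%), against 17.9% of all 32851 windows, and within 50 bases of the start in 61.7%, against 4.94%. The CHR variant TTCGAA lay in 8.51% of member windows and 1.56% of all windows. The NF-Y box CCAAT lay in 80.9% of member windows and 37.4% of all windows, and windows with both TTTGAA and CCAAT made up 63.8%, against 6.95%. A match describes the letters in the window and does not show that a factor binds there.

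**Figure D1:**
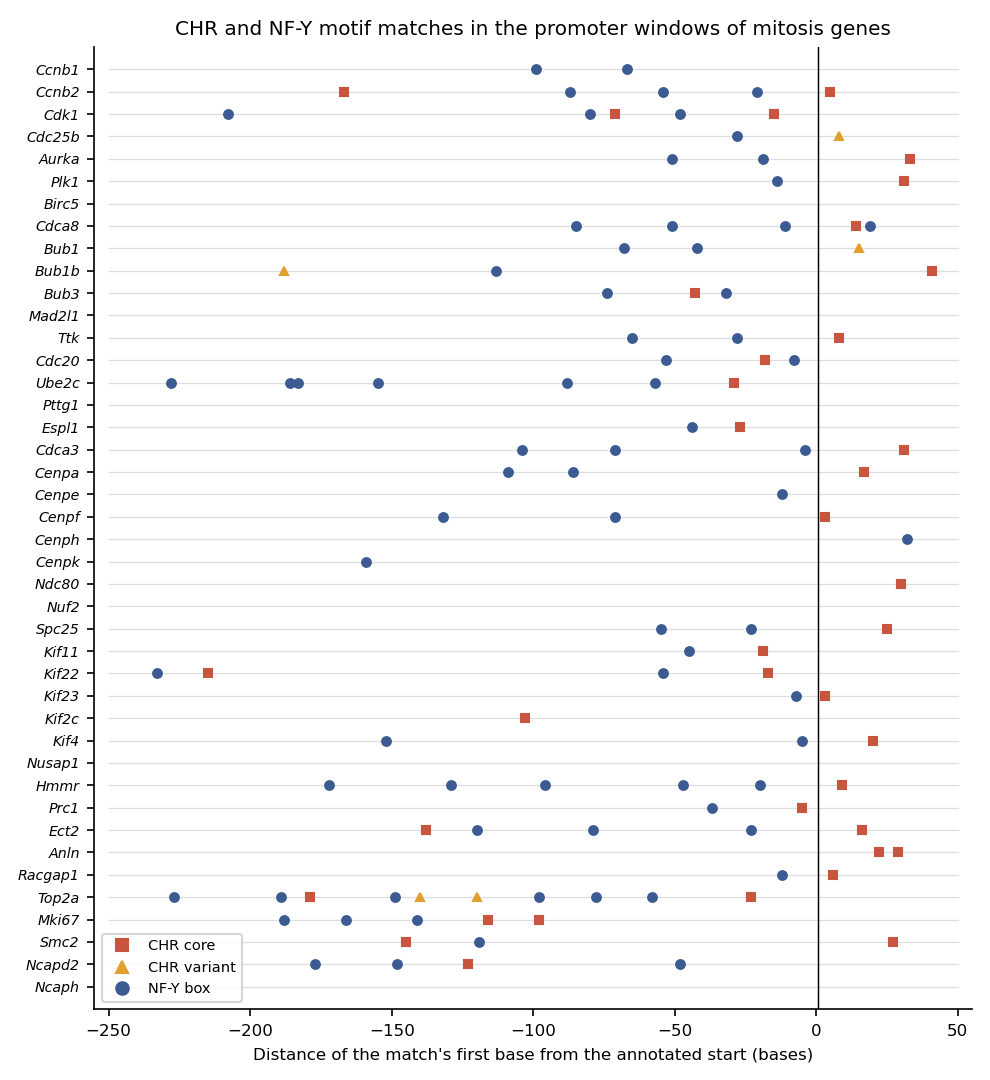
Each row is 1 of the 42 members with a promoter window, and the horizontal axis is the distance of a match's first base from the annotated start, in bases. Squares mark the CHR core, triangles its variant and circles the NF-Y box, in 1 window per gene. This is the window of lowest coordinate among those with a match, which for Prc1 is not the window printed below. Squares crowd near the start, as in the 61.7% of member windows that hold the core within 50 bases of it.

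The 100 bases before the start follow for 10 members picked from the list, written 5' to 3' along the gene's strand. Prc1 and Ect2 had 2 windows each, and the window with the most matches in these bases is printed. Capitals mark TTTGAA or TTCAAA (the CHR core on either strand) and CCAAT or ATTGG (the NF-Y box on either strand); no capital runs overlap here. On their brightest probe sets, Cdk1, Cdc20, Ube2c, Espl1 and Prc1 were lower in males, Ect2 was higher, and Kif22 and Kif11 did not pass. Kif22 was lower on its other tested probe sets, and Kif11 was higher on 1 of its others. Ncaph and Pttg1 were lower on their brightest probe sets and hold no match in these bases. Pttg1 was also higher on 1 other probe set.
Cdk1, chr10:69352913-69353012, minus strand: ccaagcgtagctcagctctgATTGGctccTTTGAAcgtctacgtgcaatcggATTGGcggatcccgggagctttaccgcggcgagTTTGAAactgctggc
Cdc20, chr4:118437344-118437443, minus strand: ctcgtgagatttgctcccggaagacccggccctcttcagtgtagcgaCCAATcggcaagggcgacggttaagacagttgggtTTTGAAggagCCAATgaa
Ube2c, chr2:164769829-164769928, plus strand: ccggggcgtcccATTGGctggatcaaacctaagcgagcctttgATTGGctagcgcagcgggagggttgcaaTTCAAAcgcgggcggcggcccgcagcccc
Espl1, chr15:102296193-102296292, plus strand: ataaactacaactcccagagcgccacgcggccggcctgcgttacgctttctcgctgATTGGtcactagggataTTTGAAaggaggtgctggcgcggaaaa
Kif22, chr7:127042421-127042520, minus strand: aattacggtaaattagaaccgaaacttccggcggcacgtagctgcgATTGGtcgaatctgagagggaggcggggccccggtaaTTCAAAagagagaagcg
Prc1, chr7:80294376-80294475, plus strand: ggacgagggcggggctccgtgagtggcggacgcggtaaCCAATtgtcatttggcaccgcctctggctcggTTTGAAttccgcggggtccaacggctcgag
Kif11, chr19:37376282-37376381, plus strand: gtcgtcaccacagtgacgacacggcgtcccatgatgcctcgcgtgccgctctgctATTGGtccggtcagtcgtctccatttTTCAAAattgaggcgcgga
Ect2, chr3:27153855-27153954, minus strand: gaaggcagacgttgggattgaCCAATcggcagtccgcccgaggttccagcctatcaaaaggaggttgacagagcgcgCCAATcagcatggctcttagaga
Ncaph, chr2:127133955-127134054, minus strand: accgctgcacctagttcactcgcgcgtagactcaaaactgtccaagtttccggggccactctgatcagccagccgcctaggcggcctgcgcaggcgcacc
Pttg1, chr11:43425982-43426081, minus strand: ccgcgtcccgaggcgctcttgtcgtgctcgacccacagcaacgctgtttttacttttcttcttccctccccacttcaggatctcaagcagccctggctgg

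Cdk1 holds 2 CHR cores and 2 NF-Y boxes in this stretch, and Ect2 holds 2 NF-Y boxes; its CHR cores lie outside the printed bases, first base at -138 and at 16 from the start. Of the 30 members with TTTGAA in a window, 16 were lower, 1 higher and 13 did not pass, with a median difference of -0.27. Of 11 tested members whose windows lacked it, 6 were lower, 0 higher and 5 did not pass, with a median of -0.27. These counts read each gene on its brightest probe set.

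Mitosis genes were lower in male tubercles more often than all tested genes were. The list was chosen with earlier results of these data known, so the shares describe it and are no independent test. On the brightest probe set of each gene, 27 of 50 members were lower in males (54%, against 28.2% of all 11489 tested genes) and 1, Ect2, was higher (2%, against 14%), while 22 did not pass. The median difference of the 50 members was -0.28, that of all genes was -0.12, and 42 members had a negative difference. Against the 28.2% of all genes, the share lower was 33.3% of kinesins, 40% of the spindle checkpoint and 44.4% of the centromere and kinetochore genes. It was 50% in the Cdk1, kinase and chromosome structure groups, 71.4% in spindle assembly and cytokinesis, and 100% in the ubiquitin ligase group, of 5 to 9 genes each. Averaged over all tested probe sets of a gene, 25 members were lower and 6 higher, against 25.9% and 17.2% of all genes. Over all 94 tested probe sets, 45 were lower (47.9%, against 21.9% of all probe sets) and 10 higher (10.6%, against 18.7%), with a median of -0.26, against -0.01 for all. Every male array lay below every female array on 39 of them (21.2% of all probe sets) and above on 10 (15.8% of all). The differences ran from -1.22 to 2.46.

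The members are abundant transcripts, and bright probe sets were more often lower in males in the series at large. Among probe sets in the upper quartile of mean level, 37 of 69 member probe sets were lower and 5 higher, against 29.2% and 20.8% of all such probe sets. Among the 25 tested member probe sets below that quartile, 8 were lower (32%) and 5 higher (20%), against 14.5% and 16.6% of all such probe sets. The median difference of the 25 was 0.16. With the median of each array made equal, which shifted all tested probe sets by -0.21, 52 member probe sets were lower and 6 higher, against 33.7% and 10.5% of all. The summed intensity of the members' brightest probe sets was 438831 to 449964 on male arrays and 508035 to 540061 on female arrays.

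**Figure D2:**
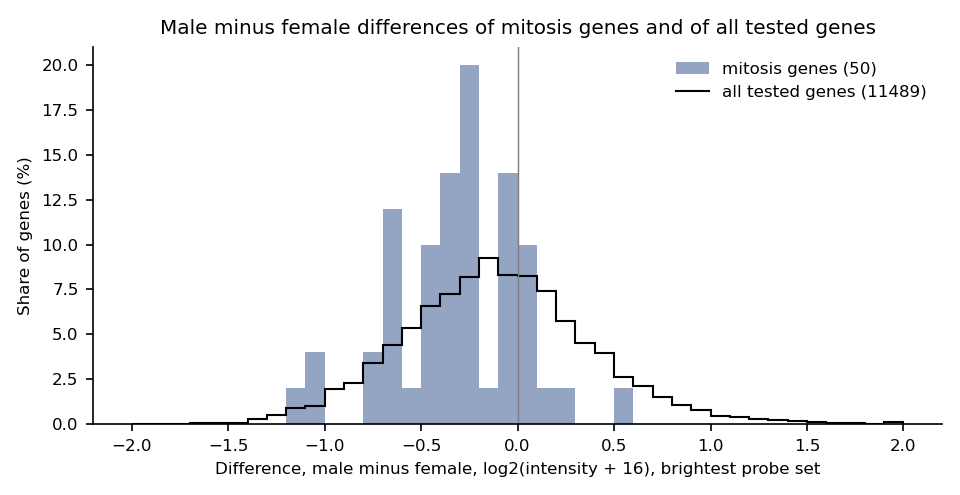
The horizontal axis is the male minus female difference on log2(intensity + 16) for the brightest probe set of each gene, in bins from -2 to 2 with genes beyond them in the end bins, and the vertical axis is the share of genes in percent. Filled bars are the 50 mitosis genes and the line is all 11489 tested genes. The members lie to the left of the line, with medians of -0.28 and -0.12.

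**Figure D3:**
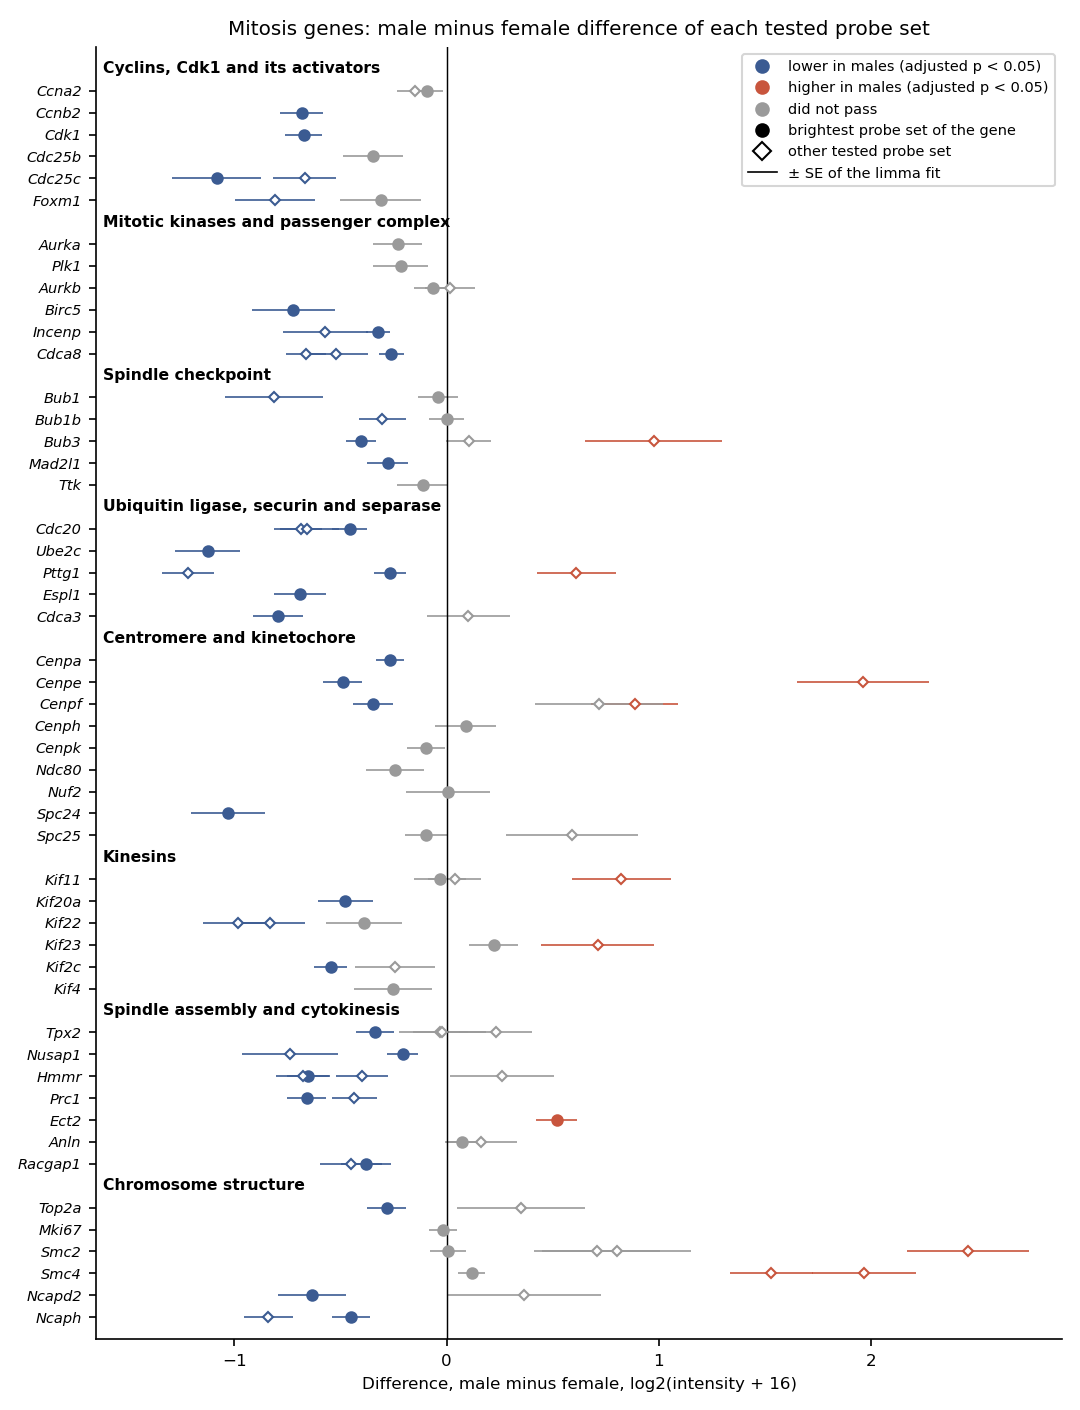
Each row is a mitosis gene, ordered by role, and the horizontal axis is the male minus female difference on log2(intensity + 16), with bars of ± SE. Filled circles are the brightest probe sets and open diamonds the other tested probe sets, coloured by whether they were lower, higher or did not pass at an adjusted p under 0.05. Of the filled circles 27 are lower and 1 is higher, and 9 open diamonds are higher.

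Among the cyclins, Cdk1 and its activators, 3 of 6 tested genes were lower and 0 higher. Cdk1, the kinase that drives entry into mitosis, read 7904, 7730, 6736 and 7743 on male arrays 1 to 4 and 12909, 11869, 12386 and 10880 on female arrays 1 to 4. All males lay below all females, and the male mean was 62.7% of the female mean (-0.67 ± 0.09, limma adjusted p = 0.000194). Its partner cyclin B2, Ccnb2, read 6381, 5320, 4867 and 5497 in males and 9278, 7978, 9472 and 8642 in females. The sexes did not overlap here either, with 5516 ± 635 in males and 8842 ± 677 in females (-0.68 ± 0.10, limma adjusted p = 0.000443). Cdc25c, a phosphatase that activates Cdk1, read 1080, 683, 512 and 983 in males and 1662, 1624, 1606 and 1810 in females. It had the largest difference of the group, -1.08 ± 0.21 (limma adjusted p = 0.00193), and its other tested probe set was lower too, at -0.67. Of the genes that did not pass, Cdc25b had -0.35 (adjusted p = 0.0656) and Ccna2, cyclin A2, had -0.09 (adjusted p = 0.36). Foxm1, the transcription factor of many members, had -0.31 (adjusted p = 0.212) on its brighter probe set at 543 ± 73.4 in males and 683 ± 140 in females, and was lower on another at -0.81 (limma adjusted p = 0.00517).

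The mitotic kinases and the chromosomal passenger complex gave 3 lower genes of 6, and these were the passenger subunits rather than the kinases. Birc5, survivin, which targets the complex to centromeres, read 1928, 1450, 1705 and 1403 in males and 3873, 2707, 2552 and 1874 in females. Female array 4 reached into the male range, and the difference was -0.72 ± 0.20 (limma adjusted p = 0.0122). Incenp, the scaffold that activates Aurora B, read 25729, 24719, 27660 and 26153 in males and 33365, 31271, 32782 and 32832 in females, with no overlap (-0.32 ± 0.06, limma adjusted p = 0.00108). Cdca8, borealin, was lower on each of its 3 tested probe sets, at -0.26, -0.66 and -0.52 from the brightest down, the last not without female array 3 (adjusted p = 0.0551). Aurkb, the catalytic kinase of the complex, read 6663, 6897, 6460 and 7249 in males and 6617, 6660, 7461 and 7765 in females. These ranges overlapped and the difference of -0.06 ± 0.09 did not pass (limma adjusted p = 0.613). Plk1, the Polo kinase of centrosomes and kinetochores, read 2156, 1804, 1611 and 1837 in males and 2077, 2102, 2446 and 1976 in females, also overlapping (-0.22 ± 0.13, limma adjusted p = 0.206). Aurka, the spindle pole kinase, had -0.23 (adjusted p = 0.127), so the 3 kinases did not pass; whether they differ from the 3 passenger subunits was not tested.

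**Figure D4:**
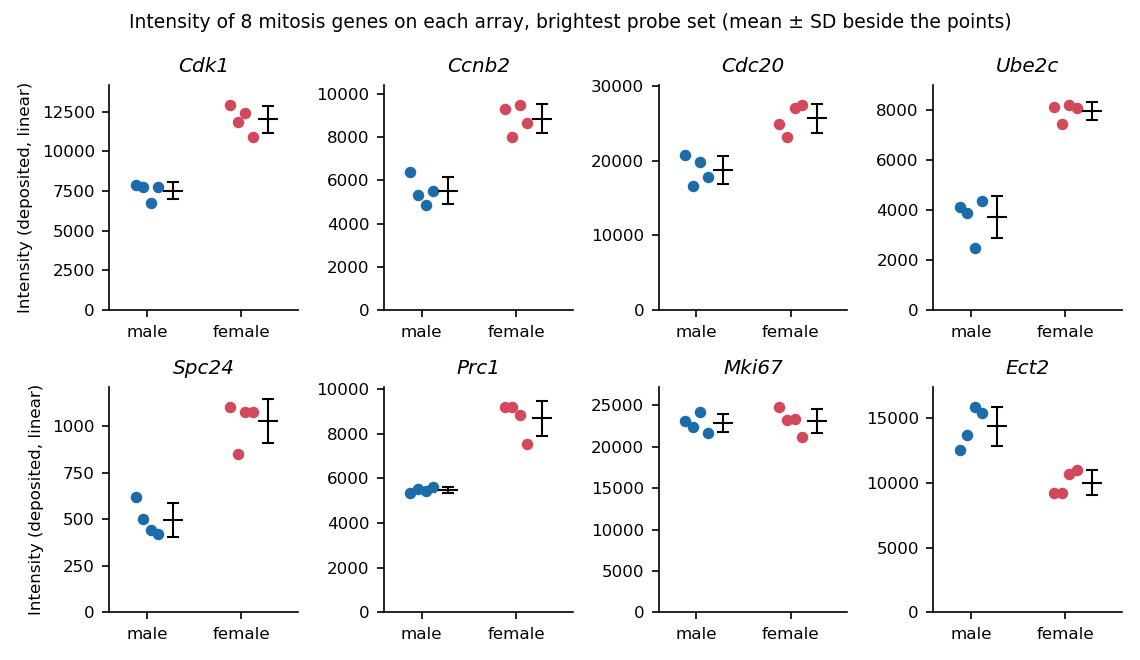
Each panel is 1 gene on its brightest probe set, with linear intensity from 0 on the vertical axis, the 4 male arrays on the left and the 4 female arrays on the right, and mean ± SD beside the points. Males lie below all females for Cdk1, Ccnb2, Cdc20, Ube2c, Spc24 and Prc1, overlap with them for Mki67, and lie above them for Ect2.

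In the spindle checkpoint, 2 of 5 genes were lower. Bub3, a WD-repeat protein that recruits the checkpoint kinases to kinetochores, read 17991, 18692, 17472 and 18331 in males and 25377, 25516, 23851 and 21299 in females. The sexes did not overlap (-0.40 ± 0.07, limma adjusted p = 0.00108). Mad2l1, whose product binds and holds Cdc20, read 7057, 8810, 7796 and 8021 in males and 10518, 8932, 10063 and 8892 in females. Male array 2 came within reach of the lowest females, and the call (-0.28 ± 0.10, limma adjusted p = 0.0348) ended without any one of male arrays 1, 3 and 4 and female arrays 1 and 3, with adjusted p up to 0.104 without female array 1. Bub1, a checkpoint kinase, read 8585, 10033, 10792 and 10738 in males and 11040, 10395, 10463 and 9314 in females on its brightest probe set. It overlapped and missed the threshold (-0.04 ± 0.09, limma adjusted p = 0.754), and a dim probe set at 337 ± 86.5 in males and 601 ± 137 in females was lower (-0.81, adjusted p = 0.015; 0.0502 without female array 1). Bub1b had 0.00 and Ttk -0.11 on their brightest probe sets, and neither passed; another probe set of Bub1b was lower at -0.30, a call that ended without any one of male arrays 2, 3 and 4 and female arrays 1, 3 and 4 (adjusted p up to 0.119).

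All 5 genes of the ubiquitin ligase, securin and separase group were lower in males, with a median of -0.69, and no other role group had every tested gene called. Ube2c, the ubiquitin-conjugating enzyme of the anaphase-promoting complex, read 4128, 3906, 2507 and 4371 in males and 8127, 7456, 8219 and 8118 in females. Its male mean was 46.7% of the female mean, a difference of -1.13 ± 0.15 (limma adjusted p = 0.000256). Every male array was well clear of the females. Cdc20, the activator that brings substrates to the complex, read 20725, 16683, 19803 and 17766 in males and 24964, 23248, 27098 and 27467 in females. No overlap was seen (-0.46 ± 0.08, limma adjusted p = 0.00133), and its other tested probe sets were lower at -0.68 and -0.66. Cdca3, a ubiquitin ligase component that promotes mitotic entry, read 2172, 1752, 2266 and 2021 in males and 3564, 3217, 3700 and 3758 in females, without overlap (-0.79 ± 0.12, limma adjusted p = 0.000443). Espl1, separase, was at 1718 ± 184 in males and 2775 ± 200 in females (-0.69 ± 0.12, adjusted p = 0.00115). Pttg1, securin, was lower at -0.27 on its brightest probe set and at -1.22 on another (1250 ± 132 in males and 2924 ± 154 in females, adjusted p = 5.86e-05), and higher at 0.61 on a further one.

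Of 9 centromere and kinetochore genes, 4 were lower in males. Spc24, a subunit of the Ndc80 complex that grips microtubules, read 622, 501, 443 and 423 in males and 1103, 850, 1078 and 1075 in females. The male mean was 48.4% of the female mean (-1.03 ± 0.17, limma adjusted p = 0.000817). Its partners in the same complex did not pass, with -0.24 for Ndc80, 0.01 for Nuf2 and -0.10 for Spc25 on their brightest probe sets (adjusted p = 0.18, 0.981 and 0.469), and a difference between subunits was not tested. Cenpe, the kinesin that moves chromosomes to the metaphase plate, read 5550, 6171, 4990 and 5684 in males and 7704, 7466, 8422 and 7831 in females on its brightest probe set. The sexes were apart (-0.49 ± 0.09, limma adjusted p = 0.00165). Cenpa, the histone H3 variant of centromeres, was lower at -0.27 (13232 ± 448 in males and 15911 ± 271 in females), and Cenpf, a protein of the outer kinetochore, at -0.35. The inner kinetochore genes Cenph and Cenpk had 0.09 and -0.10 and did not pass.

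Kinesins, motors that slide microtubules and carry or release chromosomes, gave 2 lower genes of 6, a share near that of all genes. Kif2c, a microtubule depolymerase of centromeres, read 7939, 6997, 7314 and 6874 in males and 10413, 10787, 10457 and 10850 in females. These did not overlap (-0.55 ± 0.08, limma adjusted p = 0.000352). Kif20a, a motor of the central spindle, read 6177, 4897, 3962 and 4749 in males and 6898, 6027, 7617 and 6755 in females. Male array 1 passed female array 2, and the difference was -0.48 ± 0.13 (limma adjusted p = 0.0127). Kif22, a chromosome-arm motor, did not pass on its brightest probe set (-0.39, adjusted p = 0.103) and was lower at -0.98 and -0.83 on the others. Kif11, the motor that builds the bipolar spindle, had -0.03, Kif4 had -0.25 and Kif23, a cytokinesis motor, had 0.22 on their brightest probe sets, and none of the 3 passed in limma (adjusted p = 0.858, 0.295 and 0.141).

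Spindle assembly and cytokinesis held 5 lower genes of 7 and the single higher one. Prc1, which bundles the microtubules of the central spindle, read 5345, 5501, 5434 and 5622 in males and 9178, 9170, 8840 and 7526 in females. The males were tightly grouped below all females (-0.66 ± 0.09, limma adjusted p = 0.000276). Hmmr, a spindle-associated hyaluronan receptor, read 4794, 4952, 4462 and 5248 in males and 8569, 6946, 7299 and 7878 in females, again apart (-0.65 ± 0.10, limma adjusted p = 0.000432). Tpx2, an activator of Aurora A, was lower at -0.34. Nusap1, a spindle-binding protein, was lower at -0.21 and Racgap1, a partner of Ect2 in cytokinesis, at -0.38. The Nusap1 call ended without any one of male arrays 2, 3 and 4 and female arrays 1, 2 and 3 (adjusted p up to 0.128), and that of Racgap1 without male array 3 or female array 2 (up to 0.0561). Ect2, the exchange factor that activates RhoA at the cleavage furrow, read 12577, 13708, 15838 and 15398 in males and 9241, 9193, 10663 and 10990 in females. All males lay above all females (0.52 ± 0.10, limma adjusted p = 0.0015), and with the medians of the arrays made equal the difference was 0.31 (adjusted p = 0.0522). Anln, anillin, which scaffolds the contractile ring, had 0.07 and did not pass.

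In the chromosome structure group, 3 of 6 genes were lower. Top2a, the topoisomerase that untangles sister chromatids, read 24642, 25988, 27566 and 26556 in males and 35208, 32205, 34883 and 25952 in females. Female array 4 lay inside the male range, and the call (-0.28 ± 0.09, limma adjusted p = 0.0254) ended without any one of male arrays 1 and 2 and female arrays 1, 2 and 3 (up to 0.0833 without female array 3). Mki67, the coat protein of mitotic chromosomes used as a marker of cycling cells, read 23073, 22398, 24197 and 21701 in males and 24753, 23229, 23335 and 21172 in females. The ranges overlapped almost wholly, at 22842 ± 1063 in males and 23122 ± 1474 in females (-0.02 ± 0.07, limma adjusted p = 0.862). Among the condensin subunits, which compact chromosomes, Ncapd2 read 2724, 1987, 2026 and 2226 in males and 2592, 3516, 3763 and 4178 in females. It overlapped at 1 array of each sex (-0.63 ± 0.16, limma adjusted p = 0.00796). Ncaph, another condensin subunit, read 9684, 8924, 8830 and 9291 in males and 12544, 10784, 13138 and 13882 in females, with no overlap (-0.45 ± 0.09, limma adjusted p = 0.00217), and its other probe set was lower at -0.84. The ATPase subunits Smc2 and Smc4 had 0.01 and 0.12 on their brightest probe sets and did not pass.

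Some dimmer probe sets ran the other way. Of 44 tested member probe sets that were not the brightest of their gene, 18 were lower (40.9%, against 15.1% of all such probe sets) and 9 higher (20.5%, against 24.6%), so the share higher was no larger than over all genes. The 9 were 1 each for Bub3, Pttg1, Cenpe, Cenpf, Kif11, Kif23 and Smc2, and 2 for Smc4. The probe set of Smc2 read 3821, 1821, 3135 and 1556 in males and 315, 489, 354 and 602 in females (2.46 ± 0.29, limma adjusted p = 0.000116). Those of Smc4 read 8242, 4264, 6380 and 4207 in males and 1922, 2200, 1732 and 1810 in females on one (1.53 ± 0.20), and 4275 ± 1709 in males and 1023 ± 157 in females on the other (1.97 ± 0.25). That of Cenpe read 5657, 1757, 3638 and 2007 in males and 720, 979, 635 and 657 in females (1.96 ± 0.31, limma adjusted p = 0.00058), while its brightest probe set was lower. The sexes did not overlap on these, and males 1 and 3 were the highest arrays on each.

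The remaining 5 differences were 0.98 for Bub3, 0.89 for Cenpf, 0.82 for Kif11, 0.71 for Kif23 and 0.61 for Pttg1, of which Bub3 overlapped between the sexes. Bub3, Pttg1, Cenpe and Cenpf were thus called in both directions, 4 of the 15 members with at least 2 called probe sets (26.7%), against 24.5% of all such genes. Averaged over a gene's tested probe sets, 4 members that were lower on their brightest probe set had a positive difference. Cenpe, at 0.74 (limma adjusted p = 0.00174), and Cenpf, at 0.42 (0.0197), were then called higher, and Bub3, at 0.23 (0.194), and Top2a, at 0.034 (0.861), did not pass. Smc2, Smc4 and Kif23, not called on their brightest probe set, were higher on average, at 0.99, 1.20 and 0.47. Ncapd2, at -0.13 (limma adjusted p = 0.65), and Tpx2, at -0.04 (0.79), no longer passed. Over the 9 probe sets the median deviation from the mean over arrays was 1.12, 0.40, 0.90 and 0.44 on male arrays 1 to 4 and -0.75, -0.56, -0.69 and -0.66 on female arrays 1 to 4. The 5' probe set of the beta-actin control read 4517, 1932, 3924 and 1703 in males and 1968, 2594, 2478 and 2996 in females. Male arrays 1 and 3 were thus highest on it too. The 3' over 5' ratio of this control was lowest on them, at 5.3 and 5.6, against 6.5 to 9.0 on the other arrays. For the Gapdh control this ratio was 12.8 and 12.6 on them, against 14.4 to 21.2. The part of these control levels in the result was not tested. Without male arrays 1 and 3 the differences were 1.94 for Smc2, 1.14 and 1.45 for Smc4, 1.33 for Cenpe and 1.10 for Cenpf, all still called, while Kif11 (limma adjusted p = 0.081) and Kif23 (0.182) no longer passed. That comparison had 43 member probe sets lower and 8 higher, against 20.5% and 14.9% of all tested probe sets. Calls that ended without 1 array were those of Bub3 (up to 0.0772 without male array 4, also without male arrays 1 and 2 and female arrays 1, 3 and 4), Pttg1 (up to 0.0603 without male array 2, also without female array 1) and Kif23 (up to 0.117 without male array 1, and for every array but male array 2).

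**Figure D5:**
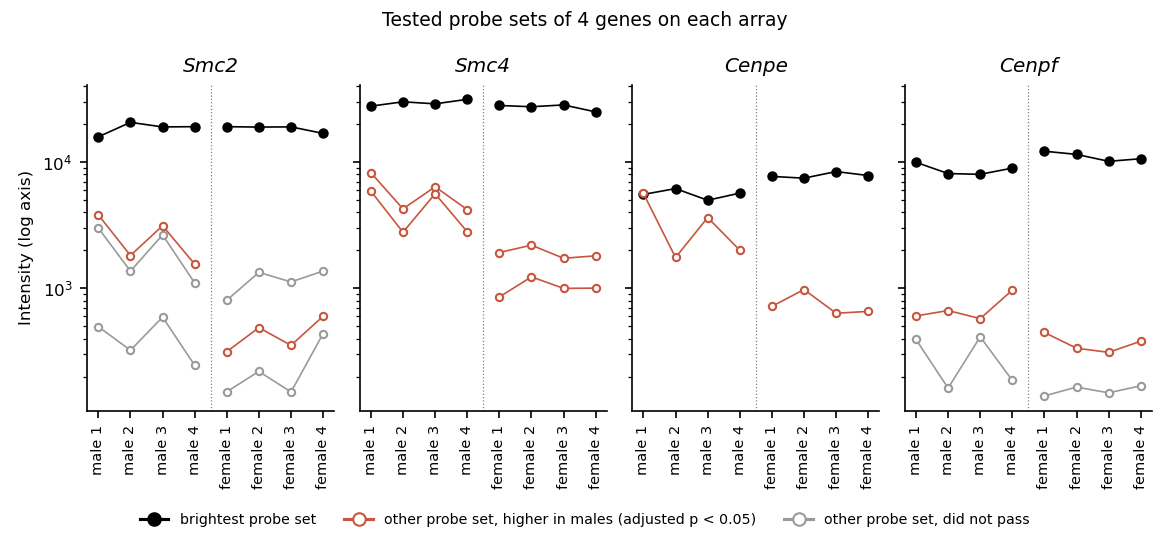
Each panel is 1 gene, with its tested probe sets as lines over the 4 male arrays and the 4 female arrays, and intensity on a log vertical axis. Filled black points are the brightest probe set, and open points the others, in red where higher in males. The red lines of Smc2, Smc4 and Cenpe peak on male arrays 1 and 3, where the black lines do not.

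Of the 22 member probe sets below the filter, which were not tested, every male array lay above every female array in 6 (27.3%, against 6.79% of all 22518 probe sets below it) and below in 1 (4.55%, against 2.12%). The 6 belonged to Aurka, Bub3, Ttk, Cenpk, Kif23 and Kif2c. For Cenpk the means were 337 in males and 129 in females, and for Ttk 257 in males and 95.2 in females. The 1 below was of Foxm1, at 63.7 in males and 255 in females.

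Other genes of mitosis, were set beside the members. Of 93 genes, 87 were tested, and 31 were lower (35.6%) and 9 higher (10.3%), against 28.2% and 14% of all genes, with a median of -0.23 (against -0.12 for all genes). With equal medians 48 of them were lower, and so were 42.2% of all genes. Gtse1, a microtubule-associated protein of the late cycle, was at 229 ± 34.3 in males and 519 ± 46.4 in females (-1.13 ± 0.18, limma adjusted p = 0.000676). Cenpt, which links the inner and outer kinetochore, had -1.11 ± 0.17 (limma adjusted p = 0.000438), and Cks2, a small subunit of the Cdk1 complex, was at 17489 ± 2727 in males and 33663 ± 4078 in females (-0.95 ± 0.11, limma adjusted p = 0.000127).

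The transcription factors that act on the CHR and NF-Y boxes did not move one way. Of 12 tested genes of the MuvB and DREAM complexes, their partners and NF-Y, 3 were lower and 3 higher, shares of 25% each, against 28.2% lower and 14% higher of all genes. Mybl2, B-Myb, the activator that joins MuvB in dividing cells, was at 170 ± 29.2 in males and 279 ± 12.7 in females (-0.68 ± 0.20, limma adjusted p = 0.0192). Tfdp2, a DNA-binding partner of E2F proteins, had -0.59, and Lin9, a subunit of the MuvB core, had 1.10 ± 0.16 (1831 ± 241 in males and 846 ± 145 in females, limma adjusted p = 0.000336). The others, named after their values were seen, were Nfyc, an NF-Y subunit, with -0.40, and Rbl2, the p130 pocket protein, with 0.47. Nfyb, another NF-Y subunit, had 0.32 on its brightest probe set. A dimmer probe set of Nfyb was lower (-0.43, limma adjusted p = 0.0497), so Nfyb was called in both directions.

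Of 22 tested genes of G1 control, 3 were lower (13.6%) and 2 higher (9.09%), against 28.2% and 14% of all genes, with a median of 0.02. Over their 43 tested probe sets 6 were lower (14%) and 11 higher (25.6%), against 21.9% and 18.7% of all. Ccne1 and Ccne2, the cyclins E that partner Cdk2 at entry into S phase, went opposite ways. Ccne1 was at 5001 ± 2505 in males and 10462 ± 2052 in females (-1.18 ± 0.29, limma adjusted p = 0.00767), and Ccne2 at 5335 ± 920 in males and 2765 ± 564 in females (0.95 ± 0.16, limma adjusted p = 0.000905). Cdk6, a cyclin D kinase, had -0.75 ± 0.10 (limma adjusted p = 0.000273) on its brightest probe set. Another probe set of Cdk6 was higher, at 5356 ± 1619 in males and 2730 ± 517 in females (0.94 ± 0.20, limma adjusted p = 0.00367). Cdk2 with -0.32 and Ccng1, cyclin G1, with 0.32 were named after their values were seen.

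Markers of the tissue and of cells it could hold differed between the sexes as well. Over all genes 28.2% were lower and 14% higher. Of 15 tested tubercle genes 7 were lower (46.7%) and 0 higher, with Pitx1 (-1.03) and Gli1 (-0.88) among the lower ones. Hoxd13 (29770 ± 1276 in males and 36381 ± 1956 in females) and Isl1 (26832 ± 1235 in males and 33690 ± 2714 in females) were bright in both sexes. Both were also among the lower genes, at -0.29 and -0.33. Another probe set of Isl1 had 0.49 and did not pass (limma adjusted p = 0.0594). Another probe set of Hoxd13, and that of Hoxa13, lay below the filter. Of 11 tested skeletal muscle genes 7 were higher (63.6%) and 0 lower, with Myh3 (1.47) and Chrna1 (1.18) among the higher ones. Their summed level over 16 genes was 21208 to 32690 in males and 7599 to 18180 in females. Of 7 tested neuron genes 5 were higher (71.4%), among them Stmn2 (1.43) and Dcx (0.89), and 1, Gap43, was lower (14.3%). The neuron sums were 12630 to 17007 in males and 9805 to 11437 in females. Summed levels were 44496 to 54303 in males and 40329 to 43052 in females for 8 erythroid genes. For 9 macrophage genes they were 6557 to 7598 in males and 4655 to 5582 in females. For 9 endothelial genes they were 11971 to 14436 in males and 10679 to 12529 in females. For 9 genes of gonad and ducts they were 2353 to 2741 in males and 1324 to 1602 in females. Only 2 of the gonad and duct genes passed the filter on low values. Of these, Sox9 alone was at 1541 ± 172 in males and 704 ± 108 in females. Within a list, genes went both ways. Of the erythroid genes Hba-x (-1.09) and Hbb-bh1 (-1.04) were lower, and Hbb-y was higher on its brightest probe set (0.24). That probe set made up most of the erythroid sum, at 46400 ± 4659 in males and 39050 ± 1273 in females. Another probe set of Hbb-y was higher (0.19) and a further one lower (-0.42, limma adjusted p = 0.00638). Cd68 of the macrophage genes was lower (-0.88) while Mrc1 (0.67) and Csf1r (0.38) were higher. Of 8 tested endothelial genes, 3 were higher on their brightest probe sets (37.5%), Kdr (1.16), Tek (0.93) and Pecam1 (0.66). Another 2 were lower (25%), Eng (-0.84) and Cdh5 (-0.57). The part of these cells in the mitosis result was not tested.

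Of the 45 lower and 10 higher member probe sets, 34 and 7 kept their call whichever single array was left out. The probe set name ended in a, s or x, letters with which Affymetrix marks probes that several transcripts share or that may cross-hybridise, for 24 of the 50 brightest probe sets, and without such probe sets 19 of 52 tested member probe sets were lower (36.5%, against 18.8% of all) and 7 higher (13.5%, against 19.6% of all).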

How the data were processed

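The genital tubercle region of 4 male and 4 female mouse embryos was measured on Affymetrix MOE430 arrays. Intensities were deposited on a linear scale, and the submitters' processing notes name GCOS, Affymetrix software, with no version. Their trimmed mean (2% at each end) was 1500.01 on every array, so the deposited intensities were taken as already scaled. The labels gave the sex of each sample.

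Values were transformed as log2(intensity + 16). After 64 control probe sets were left out, the 22519 with a mean log2 value at or above the median (7.77) were tested with limma (version 3.58.1, R version 4.3.3; lmFit, and eBayes with a variance trend), no term but sex, and Benjamini-Hochberg adjustment over all tested probe sets. Genes were named from the 34945 probe sets that named 1 gene in the platform annotation, and 932 named several and 9160 none. A gene was read on its tested probe set of highest mean. Promoter motifs were counted with Python version 3.11.15. The number of arrays limits the precision.

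Values on every array are given for Ccnb2, Cdk1, Cdc20, Plk1, Aurkb, Birc5, Bub1, Top2a, Mki67, the 2 genes of each role group with the largest called difference, and any gene called higher on its brightest probe set, 24 genes in all. Members called in both directions, up to 3 called genes of each further list and up to 2 of a marker list are named too; Hoxd13, Isl1, Gap43, the erythroid and macrophage genes and the genes outside this rule were named after their values were seen. The members and all lists were chosen with earlier results of these data known. Array measures were compared by a two-sided exact permutation test. Alternatives were quantile normalization, equal medians, pseudocounts of 1 and 64, no filter and an upper quartile filter, no variance trend, array weights, the 18S level as a covariate, the replicate number as a block, suffixed probe sets left out, the mean of a gene's probe sets, each array left out and, chosen after seeing the data, male replicates 1 and 3 left out. The method was tested on simulated data. No pair among 28 pairs of arrays held identical values.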

Additional observations from a re-analysis of the deposited data

Results flagged for a closer look

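In 5 of 66 groups of 4 arrays, 1 array lay far from the other 3 of its sex, by the ratio of its gap to the nearest of them to the whole range (Dixon's test). Chance alone does this in about 1 in 20 groups. Cdk1 was at 6736 on male array 3, below the other males, and every male was below every female. On female array 2, Ube2c was at 7456 and Spc24 at 850, each below the other females and above every male. On the dim probe sets that were higher in males, Kif11 was at 945 on male array 3 and Kif23 at 546 on male array 1, each above the other males.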

How the results depend on the processing

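Counts of calls were 45 lower and 10 higher member probe sets, 27 lower member genes and 31 lower genes among the other mitosis genes, and the median of the members was -0.26. Leaving out 1 array at a time gave 36 to 44, 8 to 13, 24 to 27 and 22 to 33, with medians of -0.27 to -0.23. With the 18S level as a covariate these counts were 2, 0, 1 and 1. With equal medians, 6 member probe sets were higher, 48 other mitosis genes were lower and the median was -0.47. An upper quartile filter left 5 higher. Without suffixed probe sets 19 member probe sets and 17 member genes were lower, with a median of -0.13, and without a filter the median was -0.095. Averaging a gene's probe sets in place of taking the brightest left 20 other mitosis genes lower and turned the sign of 7 members. Of those lower on their brightest probe set, Bub3 (0.23, limma adjusted p = 0.194), Cenpe (0.74, adjusted p = 0.00174), Cenpf (0.42, adjusted p = 0.0197) and Top2a (0.034, adjusted p = 0.861) turned positive. Of those not called, Kif11 (0.28), Spc25 (0.25) and Bub1b (-0.15) turned without a call; the cause was not tested. Male and female arrays share replicate numbers, and the deviations of same-numbered pairs had correlations of -0.126, -0.084, 0.039 and -0.031. The other pairs ran from -0.2 to 0.21. Such values cannot show whether a same-numbered pair shared a litter or an amplification, which the labels do not give. The replicate block gave 43 lower, 10 higher, 25 lower member genes, 28 lower other mitosis genes and the same median of -0.26, and Mad2l1 no longer passed (adjusted p = 0.0696). For the 24 genes with values on every array and the 9 other probe sets higher in males, 344 of the other alternative values kept their direction and side of the threshold, 48 lost the call, 2 gained it (Plk1 with equal medians, Bub1 with the mean of its probe sets) and 3 turned (Bub3, Cenpe and Top2a). Signal over background limits the dim probe sets.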
